A study of Mus musculus with 4 samples.

Results

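The collagen chain genes were examined in the left ventricle of KDM5B knockout (KO) and wild-type (WT) mice at 7 days after myocardial infarction. Members were chosen by name: every probe on the array whose gene symbol reads Col, a number, a and a number, with the brightest probe standing for the gene. This gave 43 genes of the 18670 genes that carried a RefSeq symbol, measured by 86 of 41174 probes. By class they were 11 fibrillar collagens, 6 basement membrane collagens (type IV), 9 FACIT collagens, 6 beaded filament collagens (type VI), 2 multiplexins, 3 network collagens, 4 transmembrane collagens and 2 others.

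Collagens are built from 3 polypeptide chains that wind into a triple helix, for which each chain repeats glycine at a spacing of 3 residues. Fibrillar collagens (types I, III and V in the heart) pack into the fibres that replace lost muscle in an infarct scar and are made mainly by cardiac fibroblasts. Type IV collagen forms the sheet under endothelial cells and around muscle cells, FACIT collagens sit on the surface of fibrils, and type VI collagen forms beaded microfilaments between the cell and the matrix.

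RNA of the left ventricle was hybridized to 4 Agilent Whole Mouse Genome one-colour arrays, 2 per genotype, and the titles number the arrays 2 and 3 in each group, so they are called WT 2, WT 3, KO 2 and KO 3. The mice were C57BL/6, given as males of 8 to 10 weeks, and infarction was produced in both groups by tying off for good the coronary branch that feeds the front of the ventricle. KO mice carried a CRISPR/Cas9 deletion in the JmjC domain of the Kdm5b gene that shifts its reading frame, and WT littermates served as controls. No sham-operated heart was analysed here, so no value shows what infarction did to a collagen. Nothing in the labels says whether an array held 1 animal or a pool.

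Kdm5b, the targeted gene, read -0.87 and -1.81 on WT 2 and WT 3, and -2.40 and -2.26 on KO 2 and KO 3, below both WT arrays on each KO array, although limma gave it an adjusted p of 0.9999, and whether this probe lies in the deleted part was not determined. Levels are given throughout as log2 signal minus the array's 75th percentile. All samples are labelled male, but Xist, the RNA of the inactive X chromosome, was well above background on WT 2 and KO 2 alone, and the Y-linked gene Ddx3y on WT 3 and KO 3 alone. The number 2 arrays and the number 3 arrays therefore differ in a way that the labels do not give, and each collagen is described within each number as well as over all arrays. The 4 arrays lay on 1 slide with WT and KO at different positions, so that position and genotype cannot be told apart. An array had 68.15% to 72.04% of its probes well above background, and no spot was marked as saturated. Heart muscle markers, all 15 well above background on every array, had a mean level of 6.70 and 5.64 on WT 2 and WT 3, and 7.66 and 4.90 on KO 2 and KO 3.

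Of the 43 collagens, 35 were well above background on all 4 arrays and 37 were bright enough to be tested, which took both arrays of at least 1 group. Those not tested were Col6a5, Col6a6, Col9a1, Col10a1, Col17a1 and Col28a1. The probes of 3 of them, Col6a6, Col10a1 (the collagen of growing cartilage) and Col17a1 (an anchor of skin cells), were not well above background on any array. The tested set covered all 11 fibrillar and all 6 type IV chains, 8 FACIT chains, 4 type VI chains, both multiplexins, 2 network chains, 3 transmembrane chains and 1 other.

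The triple helix repeat could be read in the array itself. In 3 of the 86 collagen probes (3.49%) a reading frame free of stop codons held GGN, the codon of glycine, at a spacing of 3 codons across the whole 60 bases, and these were the only 3 such probes among all 41174 (0.00729%). They are shown 5′ to 3′ on the strand of the gene, with the GGN codons in capitals, because they lie in the coding part that makes these proteins collagens. Their coordinates (mm9) run over more than 60 bases, so that each probe matches separate stretches of the genome.
Col5a1 (chr2:27842243-27844666, plus strand): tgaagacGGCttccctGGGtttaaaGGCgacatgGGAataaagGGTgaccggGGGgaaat
Col5a3 (chr9:20590066-20590795, minus strand): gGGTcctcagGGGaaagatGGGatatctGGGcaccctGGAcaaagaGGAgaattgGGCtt
Col11a2 (chr17:34189287-34189453, plus strand): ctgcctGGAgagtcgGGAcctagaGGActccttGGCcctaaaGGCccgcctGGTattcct
Each was the dimmer probe of its gene. KO 2 minus WT 2 was -1.27 by the Col5a1 probe, -0.68 by the Col5a3 probe and 0.36 by the Col11a2 probe, and KO 3 minus WT 3 was 0.32, -0.99 and 0.12.

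Upstream sequence differed between collagens whose values follow. RefSeq (GRCm38.p6) gave 38 windows of 250 bases before a transcript start for 35 of the 43 genes. The windows of Col1a2, Col3a1, Col6a1 and Col6a3, chains of the main fibres and of the beaded filaments, are shown 5′ to 3′ on the strand of the gene, with matches to the searched motifs in capitals.
Col1a2 (chr6:4505368-4505617, plus strand): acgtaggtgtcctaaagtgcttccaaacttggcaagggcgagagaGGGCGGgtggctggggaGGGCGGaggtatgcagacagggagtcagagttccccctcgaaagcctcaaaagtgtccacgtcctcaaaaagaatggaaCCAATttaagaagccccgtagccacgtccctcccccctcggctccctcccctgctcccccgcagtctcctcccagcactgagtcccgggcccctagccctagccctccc
Col3a1 (chr1:45311288-45311537, plus strand): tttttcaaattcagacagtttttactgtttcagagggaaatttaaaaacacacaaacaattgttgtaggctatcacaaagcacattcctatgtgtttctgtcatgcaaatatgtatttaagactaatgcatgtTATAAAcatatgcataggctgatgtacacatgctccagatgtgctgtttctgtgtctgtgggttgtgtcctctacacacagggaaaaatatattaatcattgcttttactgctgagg
Col6a1 (chr10:76726045-76726294, minus strand): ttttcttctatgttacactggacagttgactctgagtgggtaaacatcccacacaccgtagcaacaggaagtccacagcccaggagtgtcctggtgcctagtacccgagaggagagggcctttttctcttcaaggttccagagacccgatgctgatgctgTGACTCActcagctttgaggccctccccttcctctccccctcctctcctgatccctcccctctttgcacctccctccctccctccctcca
Col6a3 (chr1:90843972-90844221, minus strand): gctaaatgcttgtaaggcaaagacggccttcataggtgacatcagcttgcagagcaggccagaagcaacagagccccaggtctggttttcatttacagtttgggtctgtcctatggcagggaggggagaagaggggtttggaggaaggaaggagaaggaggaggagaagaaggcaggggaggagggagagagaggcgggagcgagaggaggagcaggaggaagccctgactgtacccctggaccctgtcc
The search covered both strands and counted a window with at least 1 match. The Col1a2 window held a CCAAT box 109 bases before the start and GC boxes 205 and 188 bases before it, and 62% of its bases were G or C. The Col3a1 window, at 35.2% G or C, held a TATA box match 117 bases before the start. The AP-1 site (TGACTCA) occurred once in the collagen windows, 90 bases before the start of Col6a1, and in 4.46% of all 32851 windows. A GC box (GGGCGG) was present in 22 of 38 collagen windows and in 32.7% of all windows. The CCAAT box was present in 13 and in 33.8%, and the TATA box (TATAAA) in 5 of the collagen windows and in 12.4% of all windows. No collagen window held the cAMP response element (TGACGTCA) or the Smad element (GTCTAGAC), which matched 1.55% and 0.167% of all windows. These matches are letters in a window and were not tied to any measurement here.

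No collagen differed between KO and WT past the threshold of the study (limma, a difference over 2-fold with an adjusted p below 0.05). Among the 37 tested collagens 0 passed, as did 0% of the 14029 genes tested, and the adjusted p was 0.9999 for each collagen. An unadjusted p under 0.05 was seen for 3 of 37, Col9a2, Col13a1 and Col20a1, the lowest being 0.0102, and for 1.39% of all genes. The smallest two-sided p that an exact permutation of 2 arrays against 2 allows is 0.333. By size alone, 6 of 37 collagens were more than 2-fold lower in KO, against 2.38% of all genes, and 0 were more than 2-fold higher, against 1.13%. For 8 of 37 each KO array was below each WT array, against 8.82% of all genes, and for 0 each was above, against 13.2%. The 8 became 6 with a median shift or by the mean of all tested probes, and 10 with normexp background correction. No share over all genes was taken in those settings, so 6 and 10 cannot be read against 8.82%. Col6a1 and Col27a1 were among the 8 with KO 3 only just below WT 2. Without KO 3 the number of collagens more than 2-fold lower was 16, and without KO 2 it was 5 with 3 more than 2-fold higher. These counts, each with a KO array left out, have no share over all genes beside them. The mean of KO was below that of WT for 30 of 37 collagens, against 45% of all genes.

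**Figure D1:**
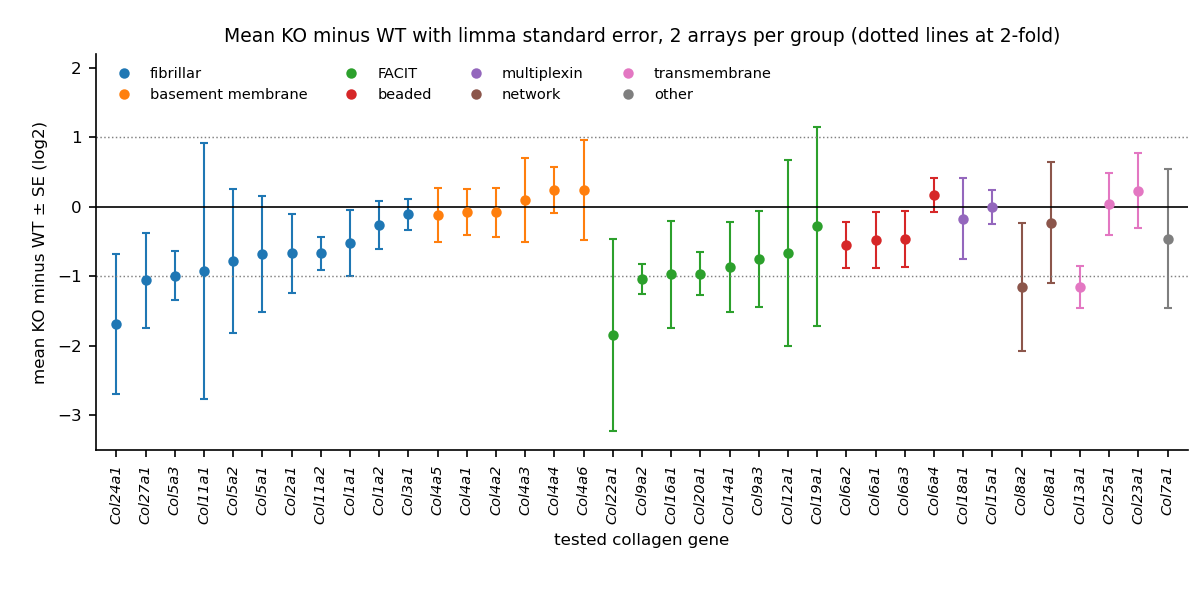
Mean KO minus WT of the 37 tested collagens on the log2 scale (vertical axis), with bars of 1 limma standard error over 2 arrays per group, coloured by class. The means run from -1.85 for Col22a1 to 0.24 for Col4a4 and Col4a6, and most bars of the fibrillar and FACIT collagens are longer than those of Col3a1, Col9a2 or Col15a1.

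The size of the difference depended on the array number. Between KO 2 and WT 2, 32 of 37 collagens were lower in KO (46.5% of all genes), 17 of them more than 2-fold (9.42%), and 0 were more than 2-fold higher (6.93%). Between KO 3 and WT 3, 16 were lower (46%) and 21 higher, with 5 more than 2-fold lower (1.79%) and 2 more than 2-fold higher (2.52%). KO 2 was the lowest of the 4 arrays for 27 of 37 collagens, against 39.9% of all genes. The median KO minus WT over the 37 was -0.94 at number 2 and 0.05 at number 3 (-0.02 with quantile normalization), beside 0.04 and 0.03 over all genes. Of the 37, 19 were lower at number 2 and higher at number 3 (28.2% of all genes), and 13 were lower at both (18.3%). With 1 array per genotype at each number, these within-number differences have no replicate.

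**Figure D2:**
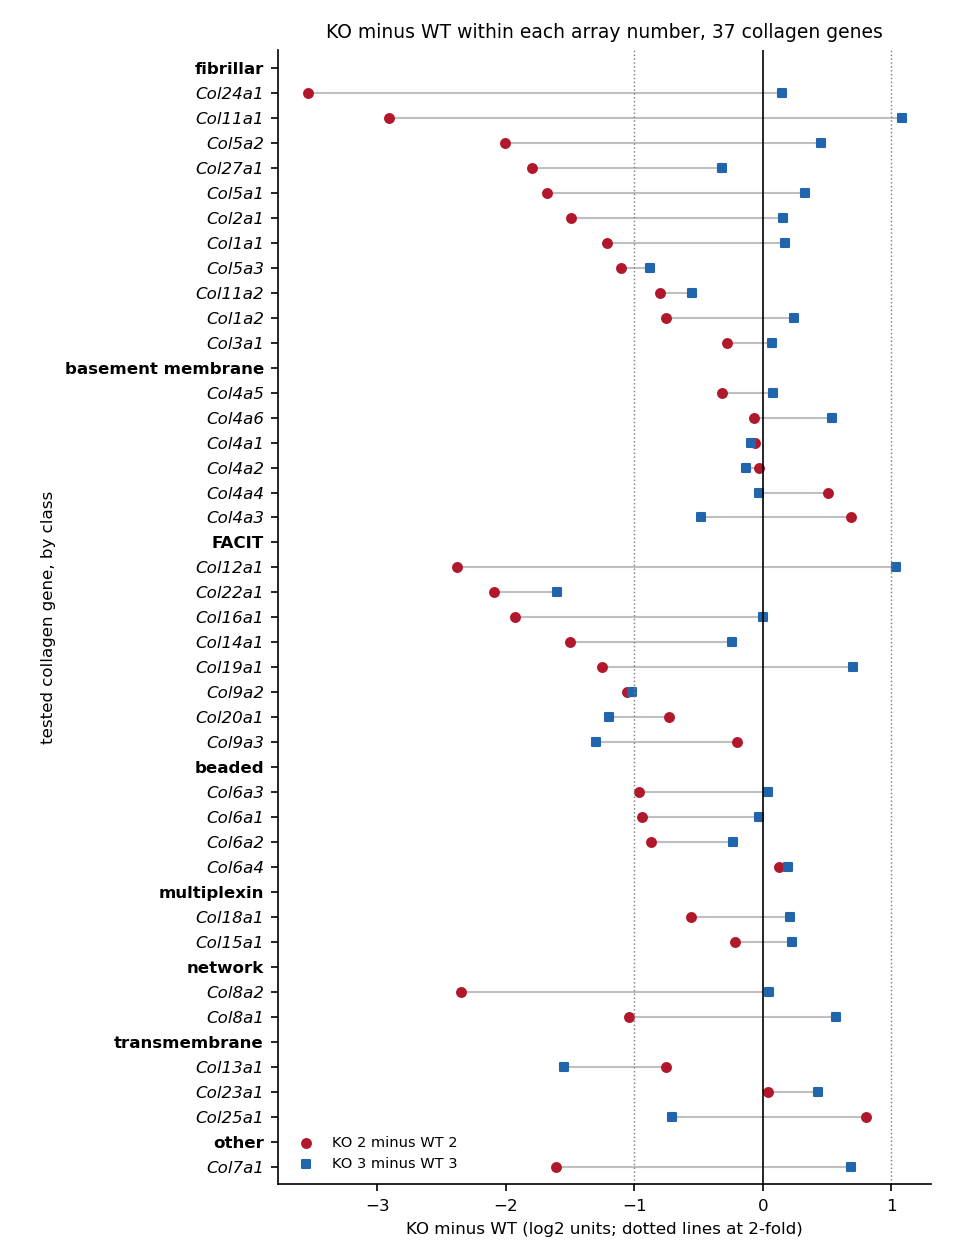
KO minus WT in log2 units (horizontal axis) for each tested collagen at array number 2 (red circles) and number 3 (blue squares), grouped by class, with dotted lines at a 2-fold difference. All 11 fibrillar circles lie left of 0 while 8 of the squares lie right of it, and the type IV chains lie within 1 log2 unit of 0 at both numbers.

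Markers of the cell types of the heart also differed between the array numbers. The 15 heart muscle markers were all higher on KO 2 than on WT 2, with a median difference of 0.90, and 14 of 15 were lower on KO 3 than on WT 3, with a median of -0.71. The 12 fibroblast markers had a mean level of 4.43 and 4.74 on WT 2 and WT 3, and 3.72 and 4.56 on KO 2 and KO 3, and 11 of 12 were lower on KO 2 than on WT 2. All 6 macrophage markers were lower on KO 2 than on WT 2, with a median of -1.26, and all 6 were higher on KO 3 than on WT 3, with a median of 0.24. Smooth muscle and myofibroblast markers had medians of -0.26 at number 2 and 0.59 at number 3 over 6 genes, and epicardial markers of -2.37 and 0.85 over 4. Fibroblast and macrophage markers were thus lower at number 2 as the collagens were, and heart muscle markers were higher. The part of these cell types in the collagen differences was not tested. In whole tissue, fewer cells of a type and less RNA per cell cannot be told apart.

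The 11 fibrillar chains had a median KO minus WT of -0.68, of -1.49 at number 2 and of 0.16 at number 3. All 11 were lower on KO 2 than on WT 2, 8 of them more than 2-fold. At number 3, 8 were higher and 3 lower in KO. The median without KO 2 was 0.05 and without KO 3 it was -1.38. The arrays of one genotype also differed unequally, since the median distance between KO 2 and KO 3 was 1.43 log2 units while that between WT 2 and WT 3 was 0.24. Over all genes these distances were 0.59 and 0.23.

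Type I collagen, the main fibre of the scar, is made of 2 chains. The Col1a2 probe (chromosome 6, 4490619 to 4490678 on mm9, plus strand; window printed above) read 8.66 and 8.42 on WT 2 and WT 3, and 7.91 and 8.66 on KO 2 and KO 3. KO 2 was the low array and KO 3 equalled WT 2, so the groups overlapped. WT averaged 8.54 ± 0.17 (SD, n = 2) and KO 8.28 ± 0.53 (SD, n = 2), a difference of -0.26 ± 0.35 (SE). The Col1a2 difference was -0.74 by the mean of its tested probes and -0.58 with the authors' log2 values. Its partner Col1a1 read 7.50 and 7.27 on WT 2 and WT 3, and 6.30 and 7.43 on KO 2 and KO 3. Only KO 2 stood apart there, 2.31-fold below WT 2, and the mean difference was -0.52 ± 0.47 (SE). It was -0.76 both by the mean of the tested Col1a1 probes and with the authors' log2 values.

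Col3a1, the chain of the finer type III fibres, read 7.53 and 7.29 on WT 2 and WT 3, and 7.25 and 7.35 on KO 2 and KO 3 by its brightest probe. By this probe the 4 arrays lay close together and the groups overlapped (difference -0.11 ± 0.22, SE). Its other probes gave -0.63 and -1.41, the last with both KO arrays below both WT arrays. The difference was -0.71 by the mean of its tested probes and -0.41 with the authors' log2 values.

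Type V collagen is a minor component that starts and limits the growth of type I fibrils. Its alpha 1 chain gene Col5a1 read 5.06 and 5.24 on WT 2 and WT 3, and 3.38 and 5.56 on KO 2 and KO 3. For Col5a2 the same arrays read 4.61, 4.90, 2.61 and 5.35. In both genes KO 2 was the lowest array and KO 3 the highest, 3.21-fold and 4.03-fold below WT 2 at number 2 and 1.26-fold and 1.37-fold above WT 3 at number 3. Col5a3, the last type V chain, differed from them: it read 4.35 and 3.70 on WT 2 and WT 3, and 3.26 and 2.82 on KO 2 and KO 3. Both KO arrays were below both WT arrays, by -1.10 at number 2 and -0.88 at number 3 (difference -0.99 ± 0.35, SE; unadjusted limma p 0.0515, adjusted 0.9999).

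The remaining fibrillar chains are best known from cartilage or are minor fibril formers. Col11a1, which nucleates cartilage fibrils with type II collagen, spanned the widest range between KO arrays of the fibrillar chains, at 1.50 and 2.42 on WT 2 and WT 3, and -1.42 and 3.50 on KO 2 and KO 3. KO 2 was 7.54-fold below WT 2 and KO 3 was 2.11-fold above WT 3, so that its mean difference of -0.92 had a standard error of 1.84. Col24a1, a minor fibrillar collagen, had -0.31 and -1.60 on WT 2 and WT 3, and -3.84 and -1.45 on KO 2 and KO 3. Its KO 2 value stood 11.6-fold below WT 2, whereas KO 3 lay between both WT arrays. By its other tested probe KO 2 minus WT 2 was -1.99 in place of -3.54. Its mean difference of -1.69 ± 1.01 (SE) was -1.09 with normexp and -0.50 without KO 2.

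Col27a1, a fibrillar collagen of cartilage, read -0.33 and -0.02 on WT 2 and WT 3, and -2.13 and -0.34 on KO 2 and KO 3. Both KO arrays were below both WT arrays, though KO 3 lay only just below WT 2 (difference -1.06 ± 0.69, SE, and -0.16 without KO 2). For Col11a2, a partner chain of Col11a1, the arrays read -2.49, -2.39, -3.29 and -2.94 in the same order. Its groups did not overlap by this probe, with a difference of -0.67 ± 0.24 (SE). The other tested probe, printed above, gave 0.24, and the difference was -0.12 with normexp and -0.22 by the mean of both probes. Col2a1, the main cartilage chain, was 2.81-fold lower on KO 2 than on WT 2 and 1.12-fold higher on KO 3 than on WT 3.

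Cartilage markers were examined beside these chains. Of 7, Matn1 was not well above background on any array. Hapln1 was well above it on KO 2 alone, 3.58 above WT 2, and was not tested. Of the 5 tested, 4 were lower on KO 2 than on WT 2. The exception, Chad, differed by 0.04 at number 2 and -0.83 at number 3. Matn3, among the 4, was not well above background on KO 2 and had passed the filter through WT. Comp, a matrix protein of cartilage and tendon, read 5.48 and 6.69 on WT 2 and WT 3, and 3.31 and 6.30 on KO 2 and KO 3, and Acan, the large cartilage proteoglycan, was 2.72-fold lower at number 2 and 1.88-fold higher at number 3.

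**Figure D3:**
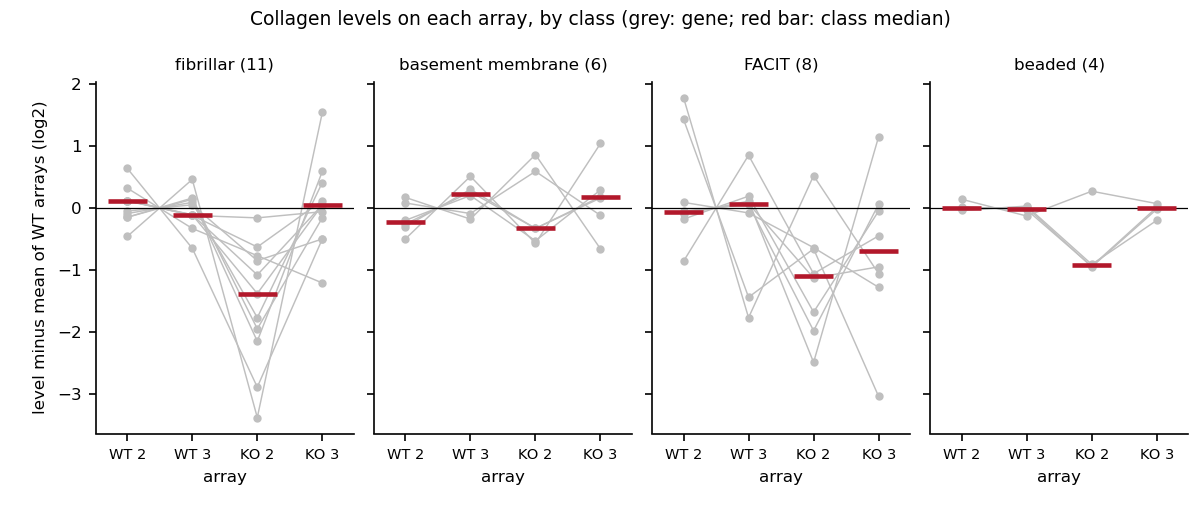
Level of each tested collagen on each array minus the mean of its WT arrays (log2 units, vertical axis) for the 4 main classes, with grey lines for genes and red bars for class medians. The fibrillar and type VI medians are low on KO 2 and near 0 on KO 3, the type IV medians follow the array number rather than the genotype, and the FACIT medians are low on both KO arrays.

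The 6 type IV chains had a median KO minus WT of 0.01, of -0.05 at number 2 and of -0.06 at number 3, with 3 chains lower and 3 higher. It had no settled sign, at -0.30 without WT 2, -0.33 without KO 3, 0.17 without either other array and -0.03 by the mean of all probes. None was more than 2-fold different at either number. Col4a1 and Col4a2 encode the chains of most vascular basement membranes and are transcribed in opposite directions from starts 21 bases apart on chromosome 8 (RefSeq, GRCm38.p6). Col4a1 read 5.08 and 5.60 on WT 2 and WT 3, and 5.01 and 5.52 on KO 2 and KO 3, and Col4a2 read 4.28, 4.88, 4.25 and 4.74 on the same arrays. Both were higher on the number 3 arrays than on the number 2 arrays in each genotype, and their mean differences were -0.08 ± 0.33 and -0.08 ± 0.35 (SE).

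The other type IV chains have narrower tissue ranges. Col4a3 (kidney glomerulus and lung) read -3.53 and -3.88 on WT 2 and WT 3, and -2.84 and -4.36 on KO 2 and KO 3, and its partner Col4a4 read 0.19, 0.02, 0.70 and -0.01. Both were highest on KO 2 and lowest on KO 3. Col4a6, found around smooth muscle and epithelia, read -0.72, 0.29, -0.79 and 0.82 by its brightest probe, again with both number 3 arrays above both number 2 arrays. Its mean difference of 0.24 had a standard error of 0.72. By another tested probe KO 3 was the lowest array, with differences of 0.55 at number 2 and -0.17 at number 3. The last tested probe, not well above background on KO 2, gave -0.77 and 0.32. Col4a5, whose start lies 1343 bases from that of Col4a6 on the X chromosome, was 0.32 lower in KO at number 2 and 0.08 higher at number 3. Endothelial markers, from cells that lie on this sheet, had a median KO minus WT of 0.53 at number 2 and -0.21 at number 3 over 8 genes.

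All 8 tested FACIT chains had a lower mean in KO, with a median of -0.92, of -1.38 at number 2 and of -0.63 at number 3. At number 2 all 8 were lower and 6 of them more than 2-fold, and at number 3, 5 were lower, 4 of them more than 2-fold, and Col12a1 was more than 2-fold higher. Col9a2, a chain of the type IX collagen that coats cartilage fibrils, was lower by nearly the same amount at both numbers. It read 0.63 and 0.77 on WT 2 and WT 3, and -0.43 and -0.25 on KO 2 and KO 3. KO minus WT was -1.06 at number 2 and -1.02 at number 3, with a mean difference of -1.04 ± 0.22 (SE), an unadjusted limma p of 0.0102 and an adjusted p of 0.9999. Col9a3, a partner chain in type IX, differed by -0.20 at number 2 and -1.30 at number 3, and Col9a1 was too dim to test.

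Col20a1, a little-studied FACIT chain, read -1.80 and -1.97 on WT 2 and WT 3, and -2.53 and -3.17 on KO 2 and KO 3. Its groups did not overlap (difference -0.96 ± 0.31, SE; unadjusted limma p 0.0408, adjusted 0.9999). With normexp the difference was -0.47. Col22a1, which lies at the junction of muscle and tendon, had the lowest mean difference of the tested collagens, -1.85, with 0.43 and -2.44 on WT 2 and WT 3, and -1.66 and -4.04 on KO 2 and KO 3. The number 3 arrays lay below the number 2 arrays in each genotype, so the groups overlapped and the standard error was 1.38. The difference was -1.08 with normexp, -0.41 without WT 2, -0.65 without KO 3, -3.04 without KO 2 and -3.28 without WT 3.

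Col12a1 and Col14a1 encode collagens of fibril surfaces in tendon, fascia and injured tissue. Col12a1 read 0.66 and 0.87 on WT 2 and WT 3, and -1.73 and 1.91 on KO 2 and KO 3. KO 2 was the lowest array, 5.22-fold below WT 2, and KO 3 the highest, 2.06-fold above WT 3, with a difference of -0.67 ± 1.34 (SE). Col14a1 read 4.07, 4.44, 2.57 and 4.20 on the same arrays, so that KO 3 lay between both WT arrays. Col16a1, an adaptor of fibrils and microfibrils, was 3.81-fold lower on KO 2 than on WT 2 and equal on KO 3 and WT 3 to 2 decimals. Col19a1, a minor basement membrane zone FACIT chain, was well above background on 3 arrays and not on WT 3.

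The type VI chains Col6a1, Col6a2 and Col6a3 form 1 heterotrimer and had nearly the same profile. With Col6a4 their median was -0.47, of -0.90 at number 2 and of 0.00 at number 3, and it was -0.001 without KO 2 and -0.92 without KO 3. Col6a1 read 4.09 and 4.11 on WT 2 and WT 3, and 3.15 and 4.08 on KO 2 and KO 3, Col6a2 read 2.97, 3.04, 2.10 and 2.81, and Col6a3 read 4.52, 4.47, 3.56 and 4.51. In each, the WT arrays lay close together, KO 2 was between 1.83-fold and 1.94-fold below WT 2, and KO 3 lay near WT 3. The groups did not overlap for Col6a1 and Col6a2, with differences of -0.48 ± 0.40 and -0.55 ± 0.33 (SE), and did for Col6a3, with -0.46 ± 0.40 (SE). That of Col6a2 was -0.31 by the mean of its probes and -0.19 without KO 2. The Col6a1 and Col6a3 windows printed above share no searched motif.

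Col6a4, a further type VI chain, read -3.14 and -3.41 on WT 2 and WT 3, and -3.01 and -3.21 on KO 2 and KO 3. Its difference of 0.17 ± 0.24 (SE) was opposite in sign to those of the heterotrimer chains and within the spread of its arrays. Col6a5 and Col6a6 were too dim to test.

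Both network chains tested were lower on KO 2 than on WT 2. Col8a1, a short-chain collagen of vessel walls and remodelling tissue, read 7.06 and 7.67 on WT 2 and WT 3, and 6.02 and 8.24 on KO 2 and KO 3. KO 2 was the lowest and KO 3 the highest array, and the difference was -0.23 ± 0.87 (SE). Its partner chain Col8a2 read 2.85, 2.90, 0.50 and 2.95, with the WT arrays and KO 3 together and KO 2 5.09-fold below WT 2. Its mean difference was -1.15 ± 0.92 (SE), and 0.08 without KO 2.

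The multiplexins, basement membrane proteins whose ends can be released as anti-angiogenic fragments, were lower on KO 2 and higher on KO 3 than the matching WT array. Col15a1 read 2.72 and 2.64 on WT 2 and WT 3, and 2.50 and 2.87 on KO 2 and KO 3, and Col18a1 read 2.94, 3.53, 2.39 and 3.74. Their mean differences were 0.00 ± 0.24 and -0.17 ± 0.58 (SE), within the spread of the arrays.

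Of the 3 tested transmembrane collagens 1 had a lower mean in KO, and the other 2 differed by less than their standard errors. Col13a1, a membrane collagen of cell adhesions and the neuromuscular junction, read -2.34 and -1.80 on WT 2 and WT 3, and -3.09 and -3.35 on KO 2 and KO 3. Its groups did not overlap, with a difference of -1.15 ± 0.30 (SE), an unadjusted limma p of 0.0204 and an adjusted p of 0.9999. With normexp the difference was -0.59. Col23a1 read -4.19, -3.42, -4.15 and -3.00, and its difference was 0.23 ± 0.54 (SE). Col25a1, a neuronal membrane collagen, was well above background on 3 arrays, WT 2 being the exception, and differed by 0.80 at number 2 and -0.71 at number 3. Outside these classes, Col7a1, the anchoring fibril of skin, was 3.06-fold lower at number 2 and 1.61-fold higher at number 3.

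Probes of the same gene were compared next, since the value of a gene rested on its brightest probe. Of the 37 tested genes 25 had over 1 tested probe, giving 29 pairs of the brightest and another probe. The sign of KO minus WT was the same in 25 pairs and differed in 4, and at number 2 it was the same in 26 and differed in 3. At number 2 the difference by the other probe was lower than that by the brightest by more than 0.5 log2 units in 7 pairs, and higher by more than 0.5 in 4. The 7 belonged to Col1a1, Col1a2, Col3a1, Col4a6 and Col12a1, and the 4 to Col2a1, Col4a6, Col11a2 and Col24a1. Over all 29 pairs it was lower in 14, equal to 2 decimals in 1 and higher in 14. Among the 7, the other Col12a1 probe and the Col4a6 probe were not well above background on KO 2. They had passed the filter through WT, as had the other tested Col11a1 probe, also not well above background on KO 2.

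**Figure D4:**
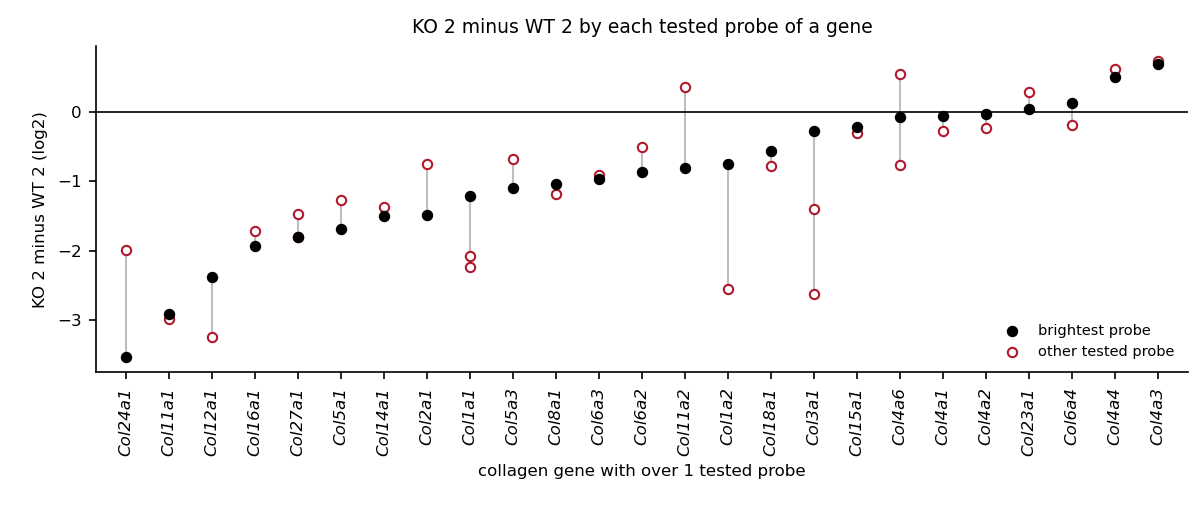
KO 2 minus WT 2 in log2 units (vertical axis) for the brightest probe (black) and the other tested probes (open red) of the 25 collagens with over 1 tested probe. The other probes of Col1a1, Col1a2 and Col3a1 lie well below the brightest one and those of Col2a1, Col11a2 and Col24a1 above it, whereas those of Col6a3, Col8a1 and Col11a1 lie beside it. The other Col11a1 and Col12a1 probes were not well above background on KO 2.

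For Col3a1 the choice of probe set the size of the number 2 difference. It was -0.28 by the brightest probe, -1.40 by a probe at 45378397 to 45378456 and -2.63 by a probe at 45381246 to 45381305 on chromosome 1 (mm9). For Col1a2 it was -0.75 by the brightest probe and -2.55 by a probe at 4463773 to 4463832 on chromosome 6, and for Col1a1 it was -1.21, -2.23 and -2.08 by 3 probes on chromosome 11. At number 3 the other Col1a1 probes gave 0.22 and 0.57, the other Col1a2 probe 0.11 and the other Col3a1 probes 0.14 and -0.18.

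The brightest probes of these genes were among the brightest of the array. By linear processed signal the Col1a2 probe ranked 5 and 3 on WT 2 and WT 3, and 81 and 2 on KO 2 and KO 3, with signals of 354691, 335292, 145790 and 358606. The Col3a1 probe ranked 63, 66, 163 and 67, and the Col8a1 probe 108, 36, 423 and 9. The highest signal of any probe was between 534674 and 561493, and no spot of these probes was marked as saturated. The part of signal strength in the difference between probes was not tested.

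The genes that make, cut, crosslink, bind and break down collagen chains were taken from 5 lists with 40 tested genes. None passed the threshold, 34 had a lower mean in KO and 6 a higher one (45% of all genes were lower), and KO 2 was the lowest array for 34 (39.9% of all genes). By size alone 6 were more than 2-fold lower in KO (2.38% of all genes) and 0 more than 2-fold higher (1.13%). Of these 6, P4ha3, Gp6 and Itga2 were each not well above background on 1 KO array and had passed the filter through WT, while Lox, Mmp9 and Ctsk were well above it on all 4. The median KO minus WT of the 40 was -0.31, with -0.73 at number 2 and 0.14 at number 3, beside -0.52, -0.94 and 0.05 over the collagens.

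Chain assembly and hydroxylation, the work of the endoplasmic reticulum, was measured by 13 genes, which were all lower on KO 2 than on WT 2, while 11 of 13 were higher on KO 3 than on WT 3. Serpinh1, the collagen chaperone Hsp47, read 5.70 and 5.92 on WT 2 and WT 3, and 4.98 and 6.26 on KO 2 and KO 3. P4ha1, a prolyl hydroxylase subunit that stabilizes the triple helix, read 0.63, 0.74, 0.17 and 0.77. In both, KO 2 was the lowest and KO 3 the highest array, as for Col5a1 and Col5a2. P4ha3, another such subunit, was not well above background on KO 2, so its mean difference of -1.01 ± 1.52 (SE) rests on a background reading there, and it was -0.03 with normexp background correction and 1.04 without KO 2.

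Propeptide removal and crosslinking follow outside the cell. Bmp1, the protease that removes the C-propeptide, read 3.50 and 3.64 on WT 2 and WT 3, and 2.16 and 3.72 on KO 2 and KO 3. Lox, the lysyl oxidase that starts crosslinks, read 3.45, 4.13, 0.77 and 4.50. KO 2 was 6.42-fold below WT 2, KO 3 was 1.29-fold above WT 3, and the mean difference was -1.16 ± 1.40 (SE), with 0.71 without KO 2. Loxl2, a related oxidase whose mean difference of 0.14 turned to -0.02 with quantile normalization, was 1.66-fold lower at number 2 and 2.01-fold higher at number 3.

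The collagen receptor Ddr2, a tyrosine kinase of fibroblasts, read 2.16 and 2.54 on WT 2 and WT 3, and 1.77 and 2.29 on KO 2 and KO 3. Gp6, the collagen receptor of platelets, read -5.09, -2.76, -5.13 and -5.90 and was not well above background on KO 3, and the integrin subunit Itga2 was not well above background on KO 2. Their mean differences were -1.59 ± 0.92 and -1.10 ± 0.92 (SE). With normexp background correction they were -0.18 and 0.20. Without WT 3 that of Gp6 was -0.42, and without KO 2 that of Itga2 was 0.10.

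Breakdown enzymes were lower at number 2 in 5 of 6. Mmp8, among the 5, was not well above background on KO 2 and had passed the filter through WT. Mmp2, a gelatinase, read 3.87 and 3.97 on WT 2 and WT 3, and 2.24 and 3.60 on KO 2 and KO 3, with both KO arrays below both WT arrays. Ctsk, a lysosomal collagenase, did likewise with 1.82, 1.85, -0.35 and 1.73. Mmp9, a gelatinase of neutrophils and macrophages, read -1.84, -1.40, -4.82 and -1.78, with KO 3 between the WT arrays. The mean differences of Ctsk and Mmp9 were -1.14 ± 0.78 and -1.68 ± 1.14 (SE), and without KO 2 they were -0.11 and -0.16. With normexp that of Mmp9 was -0.79.

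**Figure D5:**
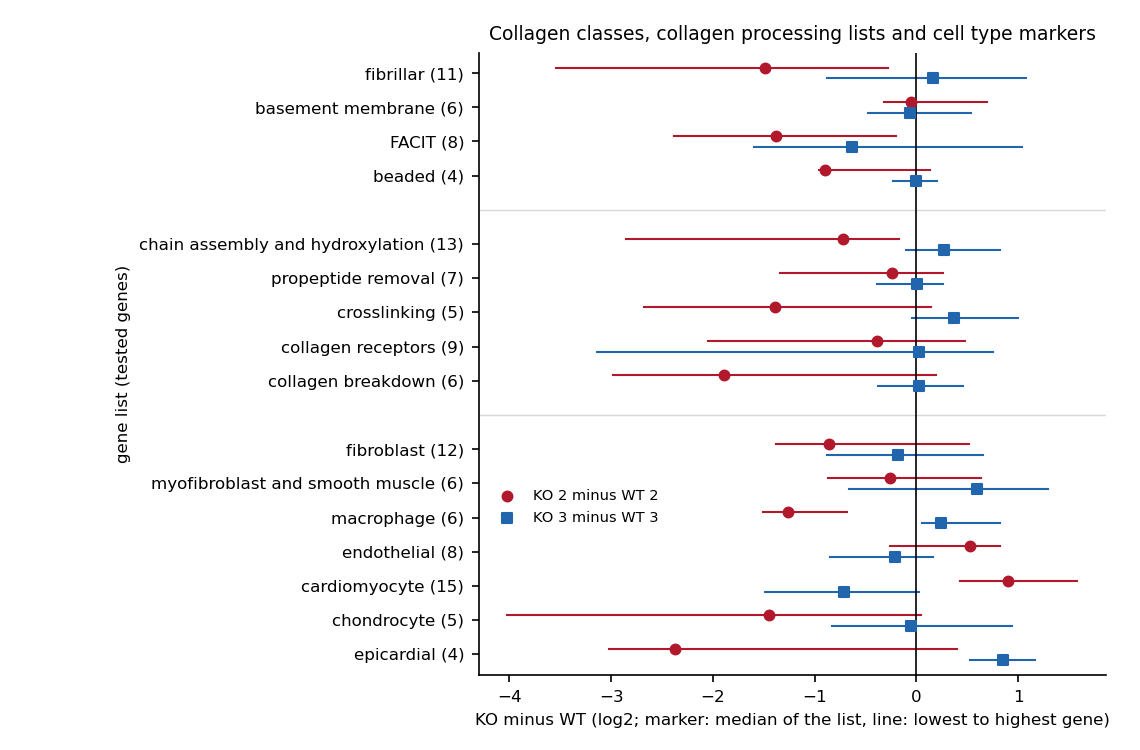
Median KO minus WT of each gene list (markers) with its lowest and highest gene (lines) in log2 units on the horizontal axis, at number 2 (red circles) and number 3 (blue squares). The fibrillar median is -1.49 at number 2 and 0.16 at number 3, the macrophage median -1.26 and 0.24, and the cardiomyocyte median 0.90 and -0.71.

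The tested collagens were sorted last by their signs within numbers. In a set with Col1a1, Col1a2, Col5a1, Col5a2, Col11a1, Col12a1, Col8a1 and both multiplexins among its 19 genes, KO was lower at number 2 and higher at number 3 (28.2% of all genes). Another 13 genes were lower in KO at both numbers (18.3% of all genes): Col4a1, Col4a2, Col5a3, Col6a1, Col6a2, Col9a2, Col9a3, Col11a2, Col13a1, Col14a1, Col20a1, Col22a1 and Col27a1. No size was required, and Col4a1 entered with -0.06 and -0.09 and Col4a2 with -0.03 and -0.13. By their other probes Col11a2 was higher at both numbers (0.36 and 0.12) and Col6a2 at number 3 (0.36). Of the 12 fibroblast markers, 4 had the first pattern and 7 were lower at both numbers. The remaining marker, Gsn, was higher at number 2 and lower at number 3. These sets were sorted by sign after the values were seen, and no test was made of the difference between them.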

How the data were processed

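RNA of 4 left ventricles or pools was measured on one-colour Agilent arrays of the mouse genome. The authors scanned the arrays, and the deposited intensity of each spot is the processed signal of Agilent Feature Extraction 10.7 (version per the submitters' processing notes), background-subtracted and detrended. They also deposited a table of log2 values from GeneSpring, which lay within 0.01 of the quantile-normalized log2 signal for 99.9% to 99.96% of probes on each array and had a median of 6.78 on each array. Its scale and direction follow from this match.

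Here spots with an outlier flag were left out, spots of a probe were averaged, and log2 signals were shifted by the 75th percentile of each array. The 28304 probes that were well above background throughout KO or throughout WT were tested. The genotypes were compared in limma 3.58.1 (R 4.3.3, lmFit then eBayes), and p-values were adjusted over all of these by Benjamini-Hochberg. The methods name only GeneSpring, so the scaling was a choice. For class values the median over the tested genes was taken. Where nothing says that arrays hold separate animals, p-values measure only the spread between these arrays. Precision is limited by the 2 arrays per group.

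Gene symbols are those of the files, and 43 of 43 collagen symbols matched RefSeq. Probe coordinates are on mm9, and the position of a probe in exons or UTRs was not determined. The members, classes and lists were chosen with earlier results of these data known. Values on each array are given for chains of types I, III, V, IV, VI, VIII, XII, XIV, XV and XVIII, for the 5 largest falls and 5 largest rises of KO minus WT, for each tested member of the 4 main classes whose groups did not overlap, and for fixed or more than 2-fold different processing genes. Scripts were tested on simulated data. Alternatives were normexp with an offset of 50, quantile normalization, a median shift, no filter on dim probes, probes above background on all arrays, the authors' log2 values, a block for array number, leaving out each array, the methods' t-test and the mean of all tested probes.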

Additional observations from a re-analysis of the deposited data

Results flagged for a closer look

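The difference between KO and WT was not the same at both array numbers. The median KO minus WT at number 2 less that at number 3 was -0.99 log2 units over the 37 tested collagens, -1.65 over the 11 fibrillar chains and -0.90 over the 4 type VI chains. These were singled out because KO was lower at number 2 and not at number 3, where the medians were 0.05, 0.16 and 0.00. With 1 array per genotype at each number the difference was not tested, and array number also separates the arrays by Xist and Ddx3y signal.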

How the results depend on the processing

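Under limma 0 collagens and 0 processing and receptor genes passed in every setting run, and 3 of 37 collagens had an unadjusted p under 0.05. That count was 1 by the methods' t-test and 5 with the array number as a block (a replicate block, after which 0 passed). It was 5 of 35 after dropping probes that were dim on any array, and 3 in each other setting with all 4 arrays. The share of all genes, 1.39%, was taken in the main setting alone, so the counts of 1 and 5 cannot be read against it. Counts with an array left out are not given, since 1 group is then a single array. Deviations of same-numbered arrays from their group means had a correlation of 0.569 over 28304 probes, but with 2 pairs this does not show that the numbers pair animals. Quantile normalization and the authors' values both turned the number 3 median of all collagens to -0.02, and the mean of all tested probes turned the type IV median to -0.03. Each KO array exceeded each WT array for 2 collagens with normexp and for 1 with no filter, with no share over all genes beside them. Several values rested on KO 2, and without it the fibrillar median was 0.05, the type VI median -0.001 and 3 collagens were more than 2-fold higher. With each array left out in turn the medians ran from -1.38 to 0.05 for fibrillar, -0.33 to 0.17 for type IV, -1.09 to -0.70 for FACIT and -0.92 to -0.001 for type VI chains. In the same fits 5 to 16 collagens were more than 2-fold lower and 0 to 3 higher, with no share over all genes beside them. The groups did not overlap for 11 to 30 collagens with KO below and for 2 to 14 with KO above. There 1 group is a single array, so these counts cannot be read against those with all arrays. Of 366 values of named genes with all arrays 7 reversed: Col15a1 at -0.02 (normexp), -0.08 (quantile and authors' values) and -0.05 (mean of probes), Itga2 at 0.20 (normexp) and Loxl2 at -0.02 (quantile and authors' values). With 1 array left out 32 of 164 values reversed, in 24 genes, with ranges of KO minus WT for Col1a1 from -1.09 to 0.05, Col1a2 -0.64 to 0.12, Col3a1 -0.23 to 0.01, Col5a1 -1.77 to 0.42, Col5a2 -2.15 to 0.59, Col4a1 -0.34 to 0.19, Col4a2 -0.38 to 0.22, Col6a3 -0.93 to 0.02, Col8a1 -1.34 to 0.88, Col12a1 -2.49 to 1.14, Col15a1 -0.18 to 0.19, Col18a1 -0.85 to 0.51, Col8a2 -2.38 to 0.08, Col4a3 -0.66 to 0.87, Col23a1 -0.35 to 0.81, Col4a6 -0.57 to 1.04, Col4a4 -0.12 to 0.59, Serpinh1 -0.83 to 0.45, P4ha1 -0.51 to 0.09, Lox -3.02 to 0.71, Loxl2 -0.60 to 0.87, Bmp1 -1.41 to 0.16, Itga2 -2.31 to 0.10 and P4ha3 -3.07 to 1.04. The causes were not tested.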
